A study of Homo sapiens with 6 samples.

Results

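The 42 genes described here carry a human cell from the start of mitosis to the separation of its daughters. They were chosen by name for their roles in mitosis, and were found by gene symbol among the 58302 genes of the deposited tables. They fall into 5 roles: 9 genes of mitotic entry, 9 of the spindle checkpoint and anaphase, 11 of kinetochores and chromosomes, 7 of spindle motors and microtubule binding, and 6 of cytokinesis. The cells were HCCLM3, a human hepatocellular carcinoma line known for its metastatic behaviour. All libraries came from transfected cells: 3 were labelled Control ASO and 3 SCARNA13 ASO, an antisense oligonucleotide (a short synthetic strand that pairs with an RNA) directed at SCARNA13. SCARNA13 is a small Cajal body RNA, and the study asked which genes act downstream of it. No untransfected cells and no time or dose were given, 1 line was used, and the labels do not say whether replicates were separate cultures. The p-values therefore measure only the spread between these libraries.

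Cells enter mitosis when cyclin B and CDK1, switched on by CDC25 phosphatases, phosphorylate nuclear and spindle proteins, with Aurora and Polo kinases acting beside them. The spindle checkpoint holds back CDC20 and the anaphase-promoting complex until every kinetochore is attached to microtubules. Separase then cuts cohesin, and motor proteins and contractile ring regulators build the furrow that divides the cell. Most of these genes are transcribed late in the cell cycle, repressed in resting cells by the DREAM complex and activated by B-MYB and FOXM1, and they serve as proliferation markers in liver tumours. In bulk RNA, fewer cells in mitosis and less RNA per mitotic cell cannot be told apart.

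SCARNA13 itself was covered by 6, 5 and 2 reads in the control libraries and by 2, 3 and 2 reads in the SCARNA13 ASO libraries, too few to check the knockdown. Its host transcript SNHG10 stood at 5.10 ± 1.10 FPKM in controls and 3.67 ± 0.681 with SCARNA13 ASO (SD, n = 3 each), where FPKM is the count of fragments divided by gene length and by a library factor, as the authors deposited it. Between 20457474 and 25173559 reads were assigned to genes per library. The third replicate of both groups stood apart from the first and second, and its values followed the GC content of transcripts, which is taken up with the members below. Of 12 hepatocyte markers, KRT8 and KRT18 were abundant, at 1151 and 1574 FPKM on average in controls, while ALB, APOB and APOA2 were listed at 0 in every library and HNF4A reached at most 0.0616. SERPINA1, which hepatocytes secrete in bulk, stood at 2.25 FPKM on average in controls, and the other 9 markers stayed under 1 FPKM in every library. Markers of other cell types were low: summed over 4 endothelial genes they reached at most 0.106 FPKM in any library, and PTPRC at most 0.0365. Only COL3A1 and CD14 averaged 1 FPKM or more over all libraries. They stood at 5.22 and 4.25 FPKM on average in controls and 6.21 and 2.28 with SCARNA13 ASO. The sum over 6 fibroblast genes ranged from 5.83 to 6.89 FPKM in controls and from 6.24 to 8.60 with SCARNA13 ASO, and that over 5 immune genes from 2.87 to 6.85 and from 2.25 to 3.27, with CD3E and LYZ listed at 0 throughout. Their part in the results below was not tested.

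All 42 genes were detected, and 41 reached a mean level of 1 FPKM across the libraries and were tested. Because FPKM is scaled by length, levels can be set beside each other, though only roughly, since replicate 3 shifted them with GC content. CDC20 was the most abundant at a mean of 331 FPKM, followed by UBE2C at 215 and AURKB at 86.9. Replicate 3 raised these means, with CDC20 at 204, 197 and 820 FPKM in controls 1 to 3. The median member stood at 8.78 FPKM. CENPE, the motor that carries chromosomes along microtubules, was the lowest at 0.408 FPKM and was not tested. It had 287 reads in the 3 control libraries and 277 in the SCARNA13 ASO libraries.

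**Figure D1:**
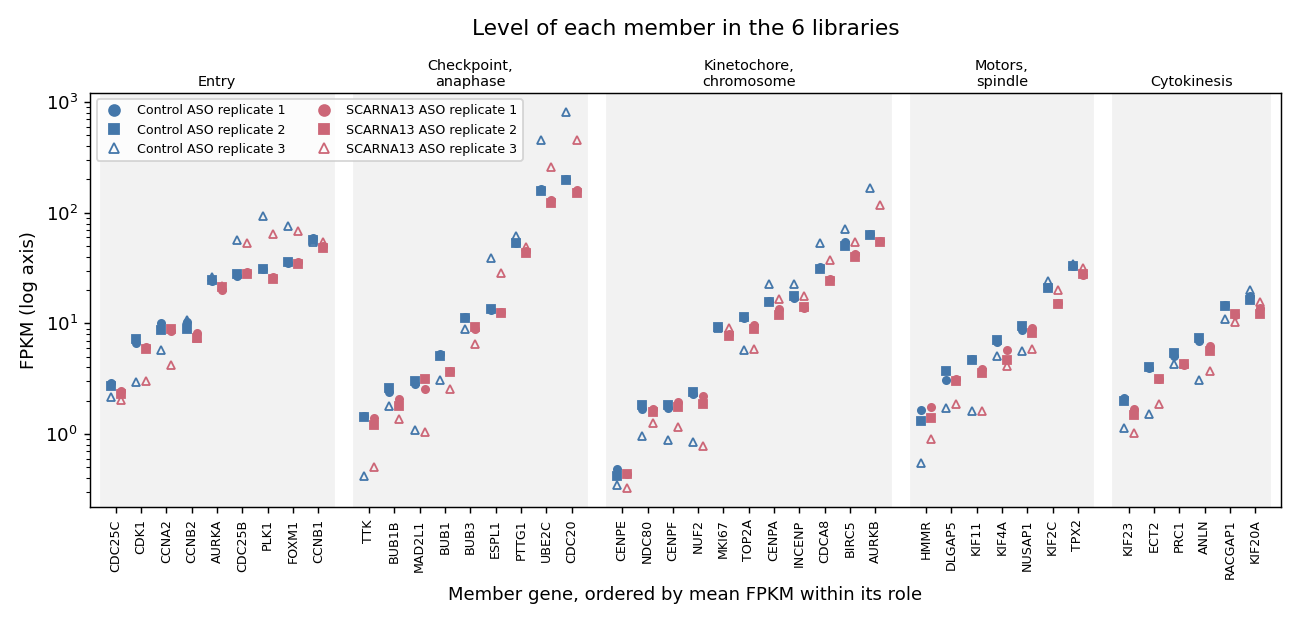
FPKM (log axis) of the 42 genes, ordered by mean level within each role, with 1 point per library; circles, squares and triangles are replicates 1, 2 and 3, blue is Control ASO and red is SCARNA13 ASO. Open triangles (replicate 3) stand above the filled points for CDC20, UBE2C, PLK1 and AURKB and below them for low genes such as TTK and HMMR, in both groups.

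The mitotic genes stood lower, on balance, with SCARNA13 ASO. The median log2 fold change over the 41 tested members was -0.20, against -0.02 over all 10120 genes tested. Seen pair by pair (SCARNA13 ASO against the control of the same replicate number), the members' medians were -0.24, -0.28 and -0.12, against -0.01, -0.01 and -0.05 over all genes. In all 3 pairs 25 of 41 members (61.0%) were lower, beside 29.6% of all genes tested. Higher in all 3 was 1 member, HMMR, beside 2423 of the 10120 genes. The groups lay fully apart, each SCARNA13 ASO library below each control, for 7 members: AURKA, CCNB2, PTTG1, MKI67, KIF2C, TPX2 and KIF20A. That is 17.1% of the members, beside 4.44% of all genes tested.

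None of the 41 passed when group was the only term of the limma fit on log2(FPKM + 0.5). It called 0% of all genes tested, with an adjusted p of 1.00 for each member (Benjamini-Hochberg), and the lowest unadjusted p among members was 0.0828 for CCNB2. At an unadjusted p under 0.05 that fit held 173 genes and 0 members. When the replicate number was kept as a block and each library's GC trend was removed, 6 members fell and 0 rose, where the same rule called 2.15% of all genes lower. These were PLK1, CDC20, BIRC5, CDCA8, KIF2C and KIF20A, at least 1 in each role, and they make up 14.6% of the tested members. The block without GC correction, GC correction without the block, and the same fit without replicate 1 or without replicate 2 each called 0 members. In the fit with both the block and GC correction, the median was -0.21 over the members and 0.00026 over all genes. There 36 of 41 members were below 0. Another 12 members missed the threshold with adjusted p-values between 0.0512 and 0.0794: PTTG1, CENPA, BUB1, AURKA, BUB3, AURKB, UBE2C, CCNB2, KIF4A, TPX2, INCENP and RACGAP1. Many other genes came near it too, since 3167 of 10104 had an unadjusted p under 0.05 in this limma fit. The share of all genes in that range was not counted.

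A model of the reads recovered from the FPKM values (limma-voom with the same block) called 14 members lower and 0 higher, where it called 5.19% of all genes lower. It added BUB1, BUB3, CCNB2, CENPA, INCENP, KIF4A, PTTG1 and UBE2C to the 6. With replicates 1 and 2 alone, a choice made after seeing that the third replicate stood apart, 20 members fell and 0 rose, beside 4.59% of all genes lower. The values of pair 3 did not enter that fit. As deposited, pair 3 was lower for 16 of those 20 (80.0%), for 95.1% of the 465 genes of the whole table that fell in replicates 1 and 2, and for 55.4% of all genes tested. After GC correction it was lower for 19 of the 20 (95.0%), for 94.2% of the 465 and for 49.5% of all genes tested.

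**Figure D2:**
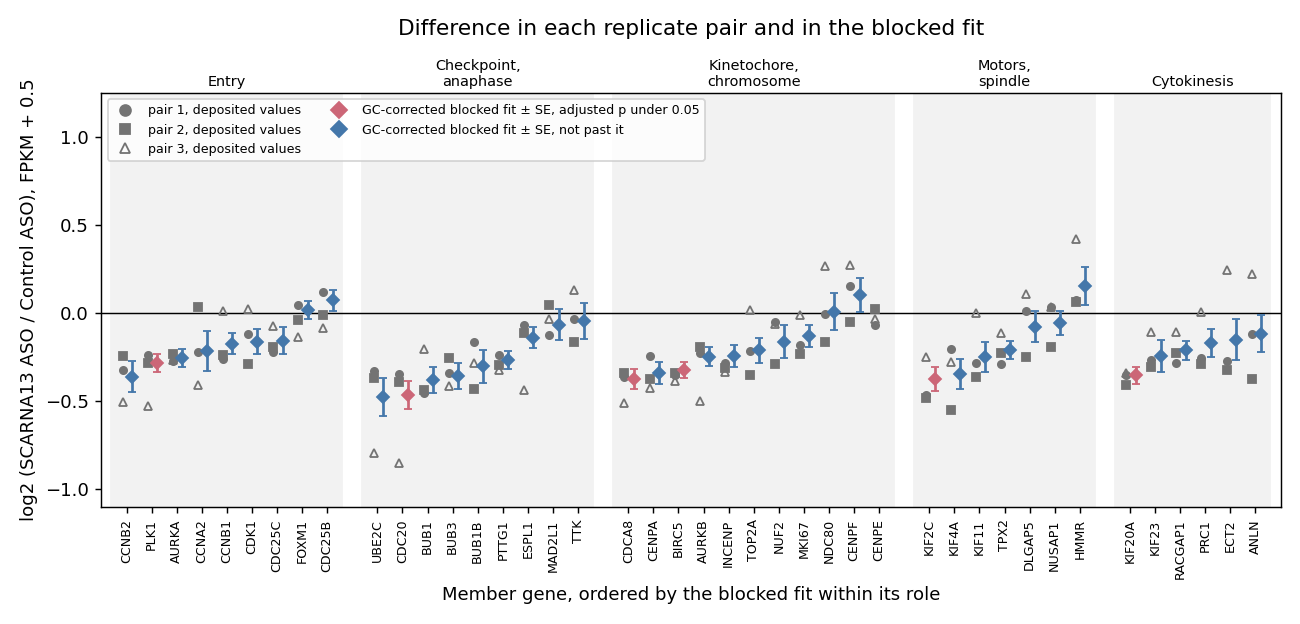
Log2 ratio of SCARNA13 ASO to Control ASO on FPKM + 0.5 for each gene. Grey symbols are the 3 replicate pairs as deposited, diamonds with bars are the estimate ± SE of the limma fit with GC correction and replicate block, red where the adjusted p is under 0.05. The 6 red diamonds, from -0.47 for CDC20 to -0.29 for PLK1, have all 3 of their pairs below 0, and HMMR at the right of the motors has all 3 above.

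The members' share of all assigned reads does not depend on how FPKM was scaled. It was 0.370%, 0.368% and 0.363% in the control libraries and 0.321%, 0.305% and 0.311% in the SCARNA13 ASO libraries. The groups did not overlap. A few abundant genes carry much of this share, and CDC20 alone held 13.6%, 13.3% and 29.2% of the members' reads in controls. Without CDC20 and UBE2C the shares were 0.295%, 0.295% and 0.220% in controls and 0.260%, 0.249% and 0.216% with SCARNA13 ASO. Each pair was then still lower, by little in the third, and the groups overlapped.

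What the members share beyond function can be read in their promoters. Late cell-cycle genes are known to carry CCAAT boxes, bound by NF-Y, and near the start site a cell cycle genes homology region with the core TTTGAA or, less often, TTCGAA. RefSeq promoter windows (GRCh38.p14, from 250 bases before to 50 after the start, 300 bases) were on hand for 34 of the 42 genes, and both strands were searched. CCAAT was found in 28 of 34 (82.4%), against 39.7% of all 27305 genes with a window. TTTGAA was found in 25 of 34 (73.5%), against 18.2% of all genes. TTCGAA was in 3 of 34 (8.82%), against 1.82%. Within the last 100 bases alone TTTGAA was in 22 of 34 (64.7%), against 5.77% of all genes. Both a CCAAT and either core were present in 23 of 34 (67.6%), against 7.85%. Among genes that reached the level filter, 7211 had a window, and the shares there were 42.7% for CCAAT and 12.0% for TTTGAA.

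To show these letters in place, 5 windows are printed, all on the plus strand, 5′ to 3′, with CCAAT and TTTGAA matches of either strand in capitals (ATTGG and TTCAAA are the same letters read on the other strand). CDC20 (chr1:43358731-43359030), PLK1 (chr16:23678639-23678938) and CDCA8 (chr1:37692266-37692565) are genes that fell and hold both motifs. KIF2C (chr1:44739587-44739886) fell and holds neither. HMMR (chr5:163460382-163460681) was higher in all 3 pairs, though not called (adjusted p = 0.372, limma with GC correction and block), and holds both.
CDC20: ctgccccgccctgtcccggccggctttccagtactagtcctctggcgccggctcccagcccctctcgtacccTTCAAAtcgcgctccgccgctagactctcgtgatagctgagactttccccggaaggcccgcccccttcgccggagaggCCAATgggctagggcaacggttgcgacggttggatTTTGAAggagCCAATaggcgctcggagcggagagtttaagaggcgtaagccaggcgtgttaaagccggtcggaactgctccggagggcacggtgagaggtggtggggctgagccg
PLK1: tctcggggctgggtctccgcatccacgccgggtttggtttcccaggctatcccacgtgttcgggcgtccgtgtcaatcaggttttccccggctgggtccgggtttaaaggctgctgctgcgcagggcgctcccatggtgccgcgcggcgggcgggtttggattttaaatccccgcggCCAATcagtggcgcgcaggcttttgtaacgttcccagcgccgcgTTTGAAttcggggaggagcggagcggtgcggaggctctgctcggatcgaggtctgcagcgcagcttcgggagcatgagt
CDCA8: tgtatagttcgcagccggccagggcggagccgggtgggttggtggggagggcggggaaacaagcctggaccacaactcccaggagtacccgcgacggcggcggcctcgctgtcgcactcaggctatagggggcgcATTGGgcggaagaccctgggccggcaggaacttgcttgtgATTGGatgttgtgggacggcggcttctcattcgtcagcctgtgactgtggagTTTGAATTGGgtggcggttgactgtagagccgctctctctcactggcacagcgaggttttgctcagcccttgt
KIF2C: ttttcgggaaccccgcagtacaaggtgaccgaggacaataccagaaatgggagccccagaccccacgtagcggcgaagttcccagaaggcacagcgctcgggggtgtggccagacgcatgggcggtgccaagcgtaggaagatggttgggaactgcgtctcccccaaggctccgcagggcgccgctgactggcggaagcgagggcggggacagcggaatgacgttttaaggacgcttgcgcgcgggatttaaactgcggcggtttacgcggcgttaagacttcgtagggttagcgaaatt
HMMR: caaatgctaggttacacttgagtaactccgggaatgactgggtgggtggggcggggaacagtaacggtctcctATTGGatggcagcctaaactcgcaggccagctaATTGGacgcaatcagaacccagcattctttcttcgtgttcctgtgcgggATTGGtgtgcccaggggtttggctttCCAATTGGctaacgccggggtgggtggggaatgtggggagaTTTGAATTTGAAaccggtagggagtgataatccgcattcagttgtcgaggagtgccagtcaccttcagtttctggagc
In CDC20 the CCAAT letters began 100 and 55 bases before the start and the core letters 178 and 65 before it. PLK1 had CCAAT at 73 and TTTGAA at 29 bases before the start. CDCA8 had CCAAT at 115, 75 and 18 bases before the start and TTTGAA at 23. HMMR had 5 CCAAT matches, from 177 to 66 bases before the start, and TTTGAA at 28 and 22. The median log2 fold change in the GC-corrected blocked fit was -0.16 for tested members with TTTGAA in the window and -0.26 for those without it. For CCAAT the order was the other way, at -0.21 with a match and -0.16 without. Neither difference was tested. A match describes the letters of a window and not a bound site.

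Among the 9 genes of mitotic entry, 1 fell, and the median log2 fold change was -0.17 in the GC-corrected blocked fit. Lower in all 3 pairs were 4 (44.4%). Over all genes tested that fit called 2.15% lower, and 29.6% were lower in all 3 pairs. PLK1, the Polo kinase that drives mitotic entry, centrosome maturation and cytokinesis, lies on chromosome 16 (23677656 to 23690367, GRCh38). It stood at 30.9, 30.9 and 93.6 FPKM in controls 1 to 3 and at 26.1, 25.2 and 64.8 with SCARNA13 ASO. The third replicate was by far the highest in both groups, so the groups overlapped although each pair was lower, by -0.24, -0.28 and -0.53 on the log2 scale. The fit gave -0.29 ± 0.051 (SE, adjusted p = 0.0477, limma with Benjamini-Hochberg), or 18.0% lower.

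AURKA, the Aurora kinase of centrosomes and spindle poles, varied little between replicates. It stood at 24.2, 24.9 and 26.1 FPKM in controls and 20.0, 21.2 and 21.6 with SCARNA13 ASO. The groups did not overlap, and the log2 difference was -0.26 ± 0.052 with an adjusted p of 0.0568 (limma). CCNB2, a B-type cyclin that partners CDK1, stood at 10.3, 8.86 and 10.7 FPKM in controls and 8.17, 7.41 and 7.42 with SCARNA13 ASO. Its groups also lay apart, at -0.36 ± 0.087 (adjusted p = 0.0707), and the model of recovered reads called it (adjusted p = 0.0421). CDC25B, a phosphatase that activates CDK1 early in mitotic entry, had the highest estimate of the role. It stood at 26.9, 28.2 and 56.6 FPKM in controls and 29.3, 27.9 and 53.3 with SCARNA13 ASO. Its groups overlapped and its pairs differed in sign, with a log2 difference of 0.07 ± 0.058 and an adjusted p of 0.436.

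The other 5 entry genes missed the threshold too. CCNB1, the main mitotic cyclin, gave -0.17 ± 0.058 (adjusted p = 0.123), and pair 3 was level at 54.2 and 54.7 FPKM. CDK1, the kinase at the centre of mitotic entry, gave -0.16, CDC25C -0.16 and the S and G2 cyclin CCNA2 -0.22, with adjusted p-values of 0.206 to 0.259. FOXM1, a transcription factor that activates many of these genes, gave 0.02 ± 0.049, with 34.8, 35.6 and 75.8 FPKM in controls and 36.0, 34.5 and 69.0 with SCARNA13 ASO.

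The 9 checkpoint and anaphase genes had the lowest median of the 5 roles, -0.30, and all 9 were below 0. Past the threshold was 1, beside 2.15% of all genes, and 7 (77.8%) were lower in all 3 pairs, beside 29.6%. CDC20, the activator of the anaphase-promoting complex and the target of the spindle checkpoint, lies on chromosome 1 (43358955 to 43363203). It stood at 204, 197 and 820 FPKM in controls and at 160, 150 and 454 with SCARNA13 ASO. Replicate 3 was far higher in both groups, so the groups overlapped, while the pairs were lower by -0.35, -0.39 and -0.85. The fit gave -0.47 ± 0.081 (adjusted p = 0.0470, limma), 27.6% lower and the lowest estimate among the 6 called members.

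PTTG1, securin, which keeps separase inactive until anaphase, stood at 53.4, 53.7 and 61.1 FPKM in controls and 45.3, 43.6 and 48.7 with SCARNA13 ASO. The groups did not overlap, and the difference was -0.27 ± 0.050 (adjusted p = 0.0512 in the GC-corrected blocked fit and 0.0421 in the model of recovered reads). BUB1, a checkpoint kinase of the kinetochore, stood at 5.29, 5.12 and 3.05 FPKM in controls and 3.72, 3.66 and 2.58 with SCARNA13 ASO. Each pair was lower, by -0.46, -0.44 and -0.21, and the groups overlapped because the third control was low. Its estimate was -0.38 ± 0.074 (adjusted p = 0.0527, and 0.0231 from recovered reads). TTK, the MPS1 kinase that starts checkpoint signalling, was the highest of the role at -0.04 ± 0.10 (adjusted p = 0.792). It stood at 1.44, 1.42 and 0.417 FPKM in controls and 1.40, 1.21 and 0.506 with SCARNA13 ASO, with overlapping groups and pair 3 above 0.

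UBE2C, the ubiquitin-conjugating enzyme of the anaphase-promoting complex, resembled CDC20 in its spread. It stood at 164, 157 and 455 FPKM in controls and 130, 122 and 262 with SCARNA13 ASO, an estimate of -0.48 ± 0.11 whose larger error left its adjusted p at 0.0662. The checkpoint protein BUB3 gave -0.36 ± 0.073 (adjusted p = 0.0576). Both passed in the model of recovered reads (adjusted p = 0.0216 and 0.0260). BUB1B, which encodes the checkpoint kinase BUBR1, gave -0.30 (adjusted p = 0.105), separase (ESPL1) -0.14 (0.193) and MAD2L1, a core checkpoint inhibitor of CDC20, -0.07 (0.639).

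Among kinetochore and chromosome genes 2 of the 10 tested fell, both of the chromosomal passenger complex, which corrects faulty kinetochore attachments. The median was -0.23, and 7 (70.0%) were lower in all 3 pairs. Over all genes 2.15% fell and 29.6% were lower in all 3 pairs. BIRC5, survivin, which anchors that complex at centromeres, lies on chromosome 17 (78214186 to 78225636). It stood at 53.9, 50.4 and 72.1 FPKM in controls and 42.1, 39.7 and 55.0 with SCARNA13 ASO. The pairs were close to each other at -0.35, -0.34 and -0.39, and the groups overlapped only through the third replicate. The fit gave -0.32 ± 0.046 (adjusted p = 0.0380, limma), or 20.0% lower.

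CDCA8, borealin, which binds survivin in the same complex, lies on chromosome 1 (37692418 to 37709719). It stood at 32.4, 30.8 and 53.3 FPKM in controls and 25.1, 24.2 and 37.2 with SCARNA13 ASO. Its pairs were lower by -0.36, -0.34 and -0.51, and its estimate was -0.37 ± 0.055 (adjusted p = 0.0394), or 22.9% lower. The complex's scaffold INCENP and its kinase AURKB were not called, at -0.25 ± 0.063 (adjusted p = 0.0793) and -0.25 ± 0.055 (adjusted p = 0.0642), although both were lower in all 3 pairs. All 4 subunits thus had estimates between -0.37 and -0.25.

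CENPA, the histone H3 variant that marks centromeres, stood at 16.0, 15.5 and 22.5 FPKM in controls and 13.4, 11.9 and 16.6 with SCARNA13 ASO. The groups overlapped through the third replicate and each pair was lower, at -0.34 ± 0.064 overall (adjusted p = 0.0515, and 0.0343 from recovered reads). CENPF, a large kinetochore and nuclear matrix protein, was the highest of the role at 0.10 ± 0.096 (adjusted p = 0.507). It stood at 1.70, 1.85 and 0.876 FPKM in controls and 1.95, 1.76 and 1.16 with SCARNA13 ASO, with pairs of both signs. The microtubule-binding NDC80 and NUF2, which form one complex, gave 0.01 and -0.16 (adjusted p = 0.970 and 0.286). TOP2A, which untangles sister DNA, gave -0.21 (adjusted p = 0.125). MKI67, which coats mitotic chromosomes and is the classical proliferation marker, gave -0.13 (adjusted p = 0.224), with groups that lay apart by little, at 9.22, 9.21 and 9.10 FPKM in controls and 8.09, 7.78 and 9.02 with SCARNA13 ASO.

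Of 7 spindle motors and microtubule-binding genes 1 fell, beside 2.15% of all genes, and the median was -0.21. Lower in all 3 pairs were 4 (57.1%), beside 29.6% of all genes. KIF2C, a kinesin that shortens microtubules at centromeres, lies on chromosome 1 (44739818 to 44767767). It stood at 21.4, 21.0 and 24.0 FPKM in controls and 15.3, 14.9 and 20.1 with SCARNA13 ASO. The groups did not overlap, and the fit gave -0.38 ± 0.066 (adjusted p = 0.0477, limma), or 22.9% lower. KIF4A, a chromosome-bound kinesin of the central spindle, stood at 6.74, 7.14 and 5.12 FPKM in controls and 5.77, 4.71 and 4.14 with SCARNA13 ASO. Its groups overlapped, its pairs were all lower, and its estimate was -0.35 ± 0.083 (adjusted p = 0.0712, and 0.0468 from recovered reads).

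TPX2, which activates Aurora A on spindle microtubules, stood at 33.3, 32.7 and 34.6 FPKM in controls and 27.2, 27.9 and 31.9 with SCARNA13 ASO. The groups lay apart, at -0.21 ± 0.051 (adjusted p = 0.0733). HMMR, a spindle-pole adaptor also known as the hyaluronan-mediated motility receptor, was the only member higher in all 3 pairs, by 0.07, 0.06 and 0.42. It stood at 1.65, 1.33 and 0.543 FPKM in controls and 1.76, 1.41 and 0.899 with SCARNA13 ASO, with overlapping groups and an estimate of 0.15 ± 0.11 (adjusted p = 0.372). KIF11, the motor that pushes spindle poles apart, gave -0.25 (adjusted p = 0.128). The microtubule-binding NUSAP1 and DLGAP5 gave -0.06 and -0.08 (adjusted p = 0.605 and 0.587).

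Among the 6 cytokinesis genes 1 fell, the median was -0.19, all 6 were below 0, and 3 were lower in all 3 pairs. Of all genes tested 2.15% fell in the GC-corrected blocked fit, and 29.6% were lower in all 3 pairs. KIF20A, a kinesin that brings passenger proteins and Polo kinase to the central spindle, lies on chromosome 5 (138178719 to 138187715). It stood at 17.6, 16.2 and 19.9 FPKM in controls and 13.7, 12.1 and 15.6 with SCARNA13 ASO. The groups did not overlap, the pairs were -0.35, -0.41 and -0.34, and the fit gave -0.35 ± 0.050 (adjusted p = 0.0380, limma), or 21.8% lower. RACGAP1, which with KIF23 forms centralspindlin, stood at 14.7, 14.3 and 11.0 FPKM in controls and 12.0, 12.1 and 10.2 with SCARNA13 ASO. Each pair was lower, the groups overlapped through the low control of replicate 3, and the estimate was -0.21 ± 0.055 (adjusted p = 0.0794).

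KIF23, the motor of centralspindlin, stood at 2.14, 1.98 and 1.14 FPKM in controls and 1.69, 1.50 and 1.02 with SCARNA13 ASO, at -0.24 ± 0.088 (adjusted p = 0.140). Each pair was lower and the groups overlapped. ANLN, anillin, which ties actin and septins to the furrow, was the highest of the role at -0.12 ± 0.11 (adjusted p = 0.484). It stood at 6.89, 7.45 and 3.10 FPKM in controls and 6.31, 5.62 and 3.69 with SCARNA13 ASO, and pair 3 was above 0. PRC1, which bundles midzone microtubules, and ECT2, an exchange factor that acts at the furrow, gave -0.17 and -0.15 (adjusted p = 0.210 and 0.417).

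How far a gene departed from the others in replicate 3 followed its GC content. For the 11 tested members with at least 50% GC in the longest transcript, replicate 3 exceeded the mean of replicates 1 and 2 by a median of 1.10 on the log2 scale in controls and 0.96 with SCARNA13 ASO. For the 21 members below 45% GC it was lower, by -0.73 and -0.57. The 9 members between stood at 0.07 and 0.13. The SCARNA13 ASO libraries deviated less at both ends.

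The pair ratios carried this too. Members of at least 50% GC had pair medians of -0.28, -0.31 and -0.44, and those below 45% had -0.16, -0.25 and 0.01. After GC correction the medians were -0.27, -0.31 and -0.32 in the first set and -0.16, -0.23 and -0.08 in the second. Of the 6 members that fell, 5 had at least 50% GC, KIF20A lay between 45% and 50%, and 0 of the 21 below 45% passed. Across the 41 members the estimate had a Spearman correlation of -0.38 with GC content and of -0.49 with the control level, so abundant members tended to have the lower estimates. These points share libraries, and the 3 most abundant genes, CDC20, UBE2C and AURKB, are all among those of at least 50% GC. Whether GC content or level has a part in which members passed was not tested.

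**Figure D3:**
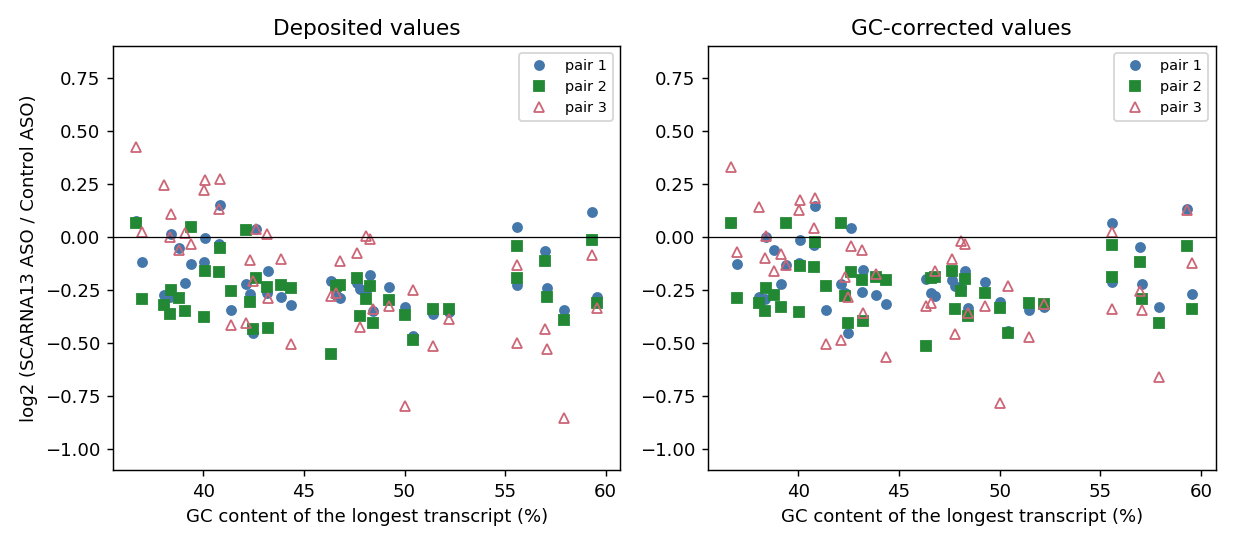
Log2 ratio of SCARNA13 ASO to Control ASO for the 41 tested members against the GC content of the longest transcript (%), with 1 symbol per replicate pair, as deposited (left) and after GC correction (right). The open triangles of pair 3 have medians of 0.01 below 45% GC and -0.44 at 50% and above on the left, and of -0.08 and -0.32 on the right.

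The scale of the third pair also matters. When values were rescaled to each library's assigned reads, the median ratio of all genes moved to 0.02, -0.0016 and 0.17 in the 3 pairs, and that of the members to -0.21, -0.28 and 0.09. Members stood below all genes in each pair on that scale as well, but 16 in place of 25 were lower in all 3 pairs, beside 18.8% of all genes. With GC correction and the block on that scale 8 members fell in place of 6, where 2.67% of all genes fell.

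Reads were counted without a stated strand, so genes that overlap a member can share its reads. KIF20A overlaps CDC23 by 68 bases and BRD8 by 268, and those genes held 24.5% and 34.1% as many reads as KIF20A. CCNA2 overlaps EXOSC9 by 578 bases, which held 23.8% as many reads as CCNA2. FOXM1 overlaps RHNO1 by 898 bases and ITFG2 by 2111, which held 21.2% and 4.60% as many reads as FOXM1. KIF4A overlaps PDZD11, CENPA overlaps SLC35F6 on the same strand, CDC25C overlaps FAM53C and NUF2 overlaps RGS5, each with more reads than the member, and their values are uncertain to that degree. The other 5 members that fell overlap no gene with a mean of 1 FPKM or more.

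Beyond the 42, a wider list of 157 mitotic genes was examined in the GC-corrected blocked fit. Of these 126 were tested, 6 fell (4.76%, beside 2.15% of all genes) and 0 rose. The median log2 fold change was -0.04, and 81 were below 0. In all 3 pairs 44 (34.9%) were lower and 18 higher. The share lower is near the 29.6% of all genes tested, of which 2423 of 10120 were higher in all 3. Whether the 42 members differ from this wider list was not tested. Of the condensin and cohesin genes, which compact chromosomes and hold sisters together, 3 of 16 fell. These were the condensin subunits NCAPD2 at -0.37 ± 0.047 (adjusted p = 0.0365) and NCAPH at -0.38 ± 0.060 (adjusted p = 0.0422), and CDCA5, sororin, which protects cohesion, at -0.33 ± 0.048 (adjusted p = 0.0387). Of 18 further entry genes 1 fell, PKMYT1, a kinase that inhibits CDK1, at -0.27 ± 0.047 (adjusted p = 0.0477).

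Of 26 further kinetochore genes 1 fell, where 2.15% of all genes fell. It was HJURP, the chaperone of CENPA, at -0.36 ± 0.063 (adjusted p = 0.0477). SPC24 and CENPW were not called at -0.35 and 0.27. Of 25 further spindle genes 1 fell, the minus-end motor KIFC1 at -0.30 ± 0.050 (adjusted p = 0.0457), with TACC3 and TUBB4B not called at -0.29 and -0.31. Among 22 genes of the anaphase-promoting complex and checkpoint 0 passed, the nearest being MAD2L1BP at -0.44 (adjusted p = 0.0517). Among 19 further cytokinesis genes 0 passed. The nearest were septin 2 at 0.25 (adjusted p = 0.0653), ARHGEF39 at -0.35 (0.0704) and the non-muscle myosin MYH9 at 0.31 (0.0705). All these adjusted p-values are from limma with GC correction and replicate block.

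**Figure D4:**
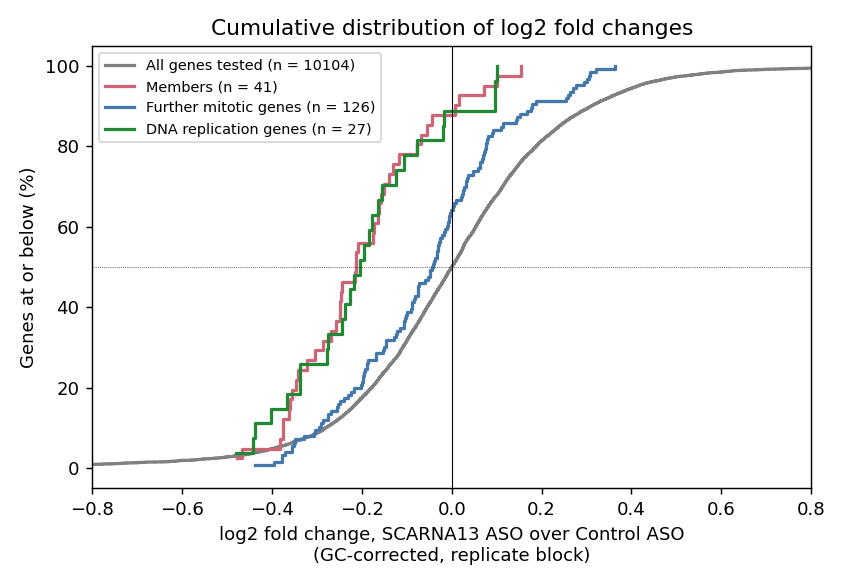
Cumulative share of genes (%) at or below each log2 fold change of the GC-corrected blocked fit, for all 10104 genes tested, 41 members, 126 further mitotic genes and 27 DNA replication genes. The curves of the members and the replication genes cross 50% at -0.21 and -0.21, left of the further mitotic genes at -0.04 and all genes at 0.00026.

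Upstream regulators of the group were examined in the GC-corrected blocked fit. Of 9 tested CDK inhibitors and DREAM or retinoblastoma family genes 0 fell and 0 rose, with a median of -0.0041. These leave out B-MYB (MYBL2) and the DREAM subunits RBBP4 and LIN37, which were counted among the further entry genes. They gave 0.08 ± 0.058, -0.19 ± 0.065 and 0.05 ± 0.15 (adjusted p = 0.411, 0.130 and 0.849, limma). E2F4, the DREAM subunit, gave -0.26 ± 0.048 (adjusted p = 0.0517, limma), CDKN1C, a CDK inhibitor, 0.37 ± 0.11 (0.0938) and TFDP1, a partner of E2F proteins, -0.14 ± 0.049 (0.129). E2F4 did pass in the model of recovered reads (adjusted p = 0.0342) and with replicates 1 and 2 alone (adjusted p = 0.0309).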

How the data were processed

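Per the labels' protocols, Trizol was used for the RNA and an Illumina TruSeq kit for the libraries. The submitters' processing notes list TopHat2 2.0.9, Bowtie2 2.0.6 and hg19 without saying what each did. For the counting tool, annotation, strand setting and normalization nothing is stated in the sources used here. What the authors deposited is 1 FPKM value per gene and library, under a header that names no unit. The unit was read from the values, since value times gene length was a whole multiple of 1 step per library for 100% of values (tolerance 0.01 reads), and whole reads were recovered from that step. Gene positions match GRCh38: 56647 of the 58039 identifiers found in GENCODE 29 (97.6%) have the same start and end there. Septin symbols appear as dates in the files and were matched by identifier.

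Genes that averaged 1 FPKM or more were tested on log2(FPKM + 0.5) with limma 3.58.1 in R 4.3.3 (trend, two-sided, Benjamini-Hochberg over all genes tested, threshold 0.05), with group as the only term. Fold changes on that scale understate those of low genes. For libraries that share a replicate number in their titles, each gene's deviations from its group mean had correlations of 0.84, 0.78 and 0.91, so by the rule used the numbers were taken as pairs. The crossed pairs of replicates 1 and 2 also correlated at 0.81, so only replicate 3 is set apart by the values and the rest of the pairing comes from the titles. The fit with a replicate block and GC correction subtracted from each library a loess trend (span 0.5) of its deviation on the GC content of each gene's longest GENCODE 29 transcript, which left 10104 genes. Recovered reads were modelled with limma-voom and median-of-ratios size factors. Library sizes from these factors matched those implied by the deposited values in each library (30416028 in Control ASO 1, for example). That model therefore shares the scaling of the deposited FPKM and is not a separate normalization. The procedures were tested on simulated data in which both groups were drawn from 1 profile per replicate number. That simulation held no GC trend that differed between the groups, so it cannot show how the fits behave where there is one. Other alternatives were pseudocounts of 0.1 and 1, other level filters, no trend, rescaling to assigned reads and leaving out libraries.

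Libraries of a group differed beyond counting noise (the lowest chi-square per gene was 3.16, over genes of 50 or more reads), so each counted as 1 sample. Promoter windows are RefSeq, GRCh38.p14. A gene with several windows counted once if any held the motif. The RefSeq start can differ from the gene start in the files. Within each role, the 3 members with the smallest p in the fit with GC correction and block, and the one with the highest fold change, are given per library. Of each further list up to 3 genes are named by smallest p, and MYBL2, RBBP4 and LIN37 are named as regulators. Some listed genes are not reported here, and the counts of those lists leave them out. The members, gene lists and tests were chosen with earlier results of these data known. Tables and figures were made with pandas 2.3.3, numpy 2.4.6, scipy 1.17.1 and matplotlib 3.10.9.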

Additional observations from a re-analysis of the deposited data

How the results depend on the processing

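With the replicate block and GC correction 526 of all genes and 6 members were called, against 0 and 0 with group alone. The replicate block by itself called 0 of either, although 2598 genes had an unadjusted p under 0.05 and the smallest adjusted p was 0.0506. Rescaled to assigned reads as well, 662 genes and 8 members were called, and limma-voom with the block called 1023 and 14. The counts moved with the replicate left out. Without replicate 1 the block called 51 genes and 0 members, and 14 and 0 with GC correction. Without replicate 2 it called 268 and 0, and 0 of either with GC correction. Without replicate 3 it called 629 genes and 10 members, and 763 and 11 with GC correction. Replicates 1 and 2 alone without the block, chosen after seeing the data, called 922 genes and 20 members, and 1243 and 19 with GC correction. Other settings called 0 members. The members' median stayed below 0 throughout, at -0.11 when rescaled to assigned reads. Members lower in all 3 pairs numbered 29 on GC-corrected and 16 on rescaled values, both chosen later. Of all genes tested 18.8% were lower in all 3 pairs on rescaled values. That share was not counted on GC-corrected values, so the 29 cannot be set against all genes. CCAAT was in 29.4% of member windows in the last 100 bases, and in the first 200 bases TTTGAA was in 14.7% and TTCGAA in 0%. Signs changed with group alone when 1 library was left out, for PLK1 (-0.79 to 0.18), CDC20 (-1.05 to 0.15), CDC25B (-0.29 to 0.35), TTK (-0.38 to 0.26), CENPF (-0.12 to 0.29), HMMR (-0.12 to 0.40) and ANLN (-0.45 to 0.12). CDC25B was -0.013 with voom and -0.049 without replicate 1 under the block. TTK was 0.010 when rescaled and, without replicate 2, 0.050 under the block and 0.0031 with GC correction too, where ANLN was 0.051 and 0.00089. The cause was not tested.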

Other observations

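The genes that copy DNA before mitosis showed a like pattern. Of 28 DNA replication genes 27 were tested, and 5 fell and 0 rose in the limma fit with GC correction and replicate block, where 2.15% of all genes fell. Their median log2 fold change was -0.21, and 20 (74.1%) were lower in all 3 pairs and 0 higher, beside 29.6% of all genes lower. CCNE1, the cyclin that starts S phase, stood at 5.995, 6.35 and 6.59 FPKM in controls and 4.04, 4.22 and 4.44 with SCARNA13 ASO, and fell by 0.48 on the log2 scale (SE 0.063, adjusted p = 0.0370, limma). All 3 of its SCARNA13 ASO libraries were below all 3 controls, and its replicate 3 was close to the others. FEN1, the flap nuclease of lagging-strand synthesis, stood at 28.9, 29.2 and 38.5 FPKM in controls and 23.0, 21.7 and 28.8 with SCARNA13 ASO (-0.34 ± 0.051, adjusted p = 0.0404). PCNA, the sliding clamp of DNA polymerases, stood at 64.2, 63.5 and 45.5 FPKM in controls and 52.1, 51.7 and 38.9 with SCARNA13 ASO (-0.28 ± 0.046, adjusted p = 0.0455). Both were lower in all 3 pairs, while the groups overlapped only for PCNA. ORC1 and CDT1, which license replication origins, were the other 2 that fell.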
